A study of Mus musculus with 8 samples.

Results

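The 36 genes described here act in the cell division cycle and in DNA replication, and were measured in liver RNA of growing male mice of 2 congenic genotypes. They are 3 cyclin genes of the G1 phase and of the step into S phase (Ccnd1, Ccne1 and Ccne2), 13 genes of S phase and 20 genes of mitosis. The rule that chose them is a list of gene symbols and uses no measured value, but the list was made with earlier results of these data known. The array probes of these genes were found by accession, without its version, through the mouse RefSeq gene table. All 36 of the 36 were found among the 26698 genes named on the array. Each had a probe well above background on all 8 arrays, so no member was lost to the filter on dim probes.

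The comparison was between 4 arrays of Ltg/NZO.5.3N/B mice, called NB here (samples 2, 3, 5 and 8), and 4 arrays of Ltg/NZO.5.3N/N mice, called NN here (samples 1, 4, 6 and 7). Both are recombinant congenic lines made from NZO/HiBomDife, an obese mouse strain, and C57BL/6J, and they differ in a segment of 5.3 Mbp on chromosome 18. All mice were male and ate a high-fat diet with 45% fat. One label gives week 5 as the end of feeding and another 5 weeks as the age of the mice, and no other diet or age was compared. Whether every array had its own animal is not stated, so a p-value here reflects how far these samples vary, and precision is limited by there being 4 arrays in each group.

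In most tissues of a grown animal, cells rest outside the cycle. Entry begins with D-type and E-type cyclins, which release E2F factors from the retinoblastoma protein, and E2F then switches on the genes that license origins, build the replication fork and make deoxynucleotides. The genes of mitosis follow later, when the factors B-MYB and FOXM1 join the MuvB complex on a short promoter element, the cell cycle homology region, often beside CCAAT boxes bound by NF-Y. In young mice the liver is still growing and its hepatocytes become polyploid, partly by cycles that end without division of the cell body, so DNA synthesis and mitosis need not run in step in this tissue.

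The promoters of the genes follow this division of the module only in part, and 10 of them are given, all of genes with results described further on. Other such genes, among them Kif23, Nusap1, Bub1b and Uhrf1, are not printed. The windows of Kif23, Nusap1 and Bub1b hold no cell cycle homology region, so the printed windows do not show how common an element is. Each window is the 150 bases before the transcription start site, read 5′ to 3′ from the RefSeq promoters of GRCm38.p6. Capitals mark matches, on either strand, to the cell cycle homology region (TTTGAA or TTTAAA, the second being its own reverse complement), to the E2F core (TTCCCGC or TTGGCGC or TTCGCGC) and to the CCAAT box (CCAAT). Some E2F letters read on the reverse strand can overlap a CCAAT box. The first 6 windows are of mitosis genes: Top2a (chr11:99024190-99024339, minus strand), Cdc20 (chr4:118437344-118437493, minus strand), Ccnb2 (chr9:70421555-70421704, minus strand), Plk1 (chr7:122159285-122159434, plus strand), Mki67 (chr7:135716380-135716529, minus strand) and Cdk1 (chr10:69352913-69353062, minus strand). The other 4 are of S phase genes: Mcm5 (chr8:75109359-75109508, plus strand), Mcm6 (chr1:128359706-128359855, minus strand), Mcm2 (chr6:88898781-88898930, minus strand) and Cdc6 (chr11:98908001-98908150, plus strand).
Top2a: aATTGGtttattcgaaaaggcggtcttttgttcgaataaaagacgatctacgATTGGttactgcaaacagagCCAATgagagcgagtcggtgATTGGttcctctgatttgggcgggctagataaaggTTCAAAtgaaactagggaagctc
Cdc20: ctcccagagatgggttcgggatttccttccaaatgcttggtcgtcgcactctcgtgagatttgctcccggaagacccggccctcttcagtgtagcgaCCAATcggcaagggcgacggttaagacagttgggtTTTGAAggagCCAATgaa
Ccnb2: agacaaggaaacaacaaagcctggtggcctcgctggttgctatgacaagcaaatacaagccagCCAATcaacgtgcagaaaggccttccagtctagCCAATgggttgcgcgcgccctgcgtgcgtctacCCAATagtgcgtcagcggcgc
Plk1: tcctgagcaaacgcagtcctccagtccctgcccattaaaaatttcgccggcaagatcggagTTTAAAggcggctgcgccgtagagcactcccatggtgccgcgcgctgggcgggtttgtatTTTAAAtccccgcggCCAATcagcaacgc
Mki67: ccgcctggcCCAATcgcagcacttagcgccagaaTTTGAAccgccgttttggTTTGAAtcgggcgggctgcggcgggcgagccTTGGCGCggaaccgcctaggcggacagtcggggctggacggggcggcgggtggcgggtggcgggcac
Cdk1: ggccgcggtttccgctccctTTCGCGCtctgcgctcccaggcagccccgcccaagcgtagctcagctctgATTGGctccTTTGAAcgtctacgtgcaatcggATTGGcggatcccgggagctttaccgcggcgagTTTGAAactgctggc
Mcm5: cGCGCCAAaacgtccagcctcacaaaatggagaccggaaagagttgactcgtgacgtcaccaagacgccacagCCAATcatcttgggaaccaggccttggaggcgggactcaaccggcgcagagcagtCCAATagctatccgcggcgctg
Mcm6: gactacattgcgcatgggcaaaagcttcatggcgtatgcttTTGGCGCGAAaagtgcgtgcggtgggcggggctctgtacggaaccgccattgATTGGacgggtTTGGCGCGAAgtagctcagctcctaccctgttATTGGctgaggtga
Mcm2: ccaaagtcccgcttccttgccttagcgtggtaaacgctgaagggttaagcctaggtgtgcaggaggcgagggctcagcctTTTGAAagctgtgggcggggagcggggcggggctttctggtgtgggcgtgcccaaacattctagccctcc
Cdc6: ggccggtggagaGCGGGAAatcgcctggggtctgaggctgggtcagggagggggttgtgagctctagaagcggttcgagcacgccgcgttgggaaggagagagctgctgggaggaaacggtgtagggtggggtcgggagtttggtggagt

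In these windows Top2a held CCAAT boxes in both orientations and 1 cell cycle homology region, as ttcaaa, close to the start site. Plk1 held the palindromic form of that element at 2 places, and Cdk1 held the form TTTGAA at 2 places with an E2F core further upstream. Mcm6 held 2 copies of an overlapping pair of E2F cores and no homology region. In Mcm2, by contrast, the only marked element was a homology region.

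From 250 bases before to 50 bases after the start site, 28 of the 36 members had a promoter in the table. Of 15 mitosis promoters, 13 (86.7%) held a cell cycle homology region, against 5 of 12 S phase promoters (41.7%) and 30.6% of all 27025 genes with a promoter. The E2F core had the opposite order, with 3 of 15 mitosis genes (20%) and 7 of 12 S phase genes (58.3%), against 9.20% of all genes. A CCAAT box stood in 13 of 15 mitosis genes and 9 of 12 S phase genes (75%), against 41.1% of all genes, and 12 of 15 mitosis genes (80%) held both a CCAAT box and a homology region, against 13.4% of all genes. Nusap1 and Tyms held none of the 3 elements in this stretch. These are matches of letters, not measured binding.

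**Figure D1:**
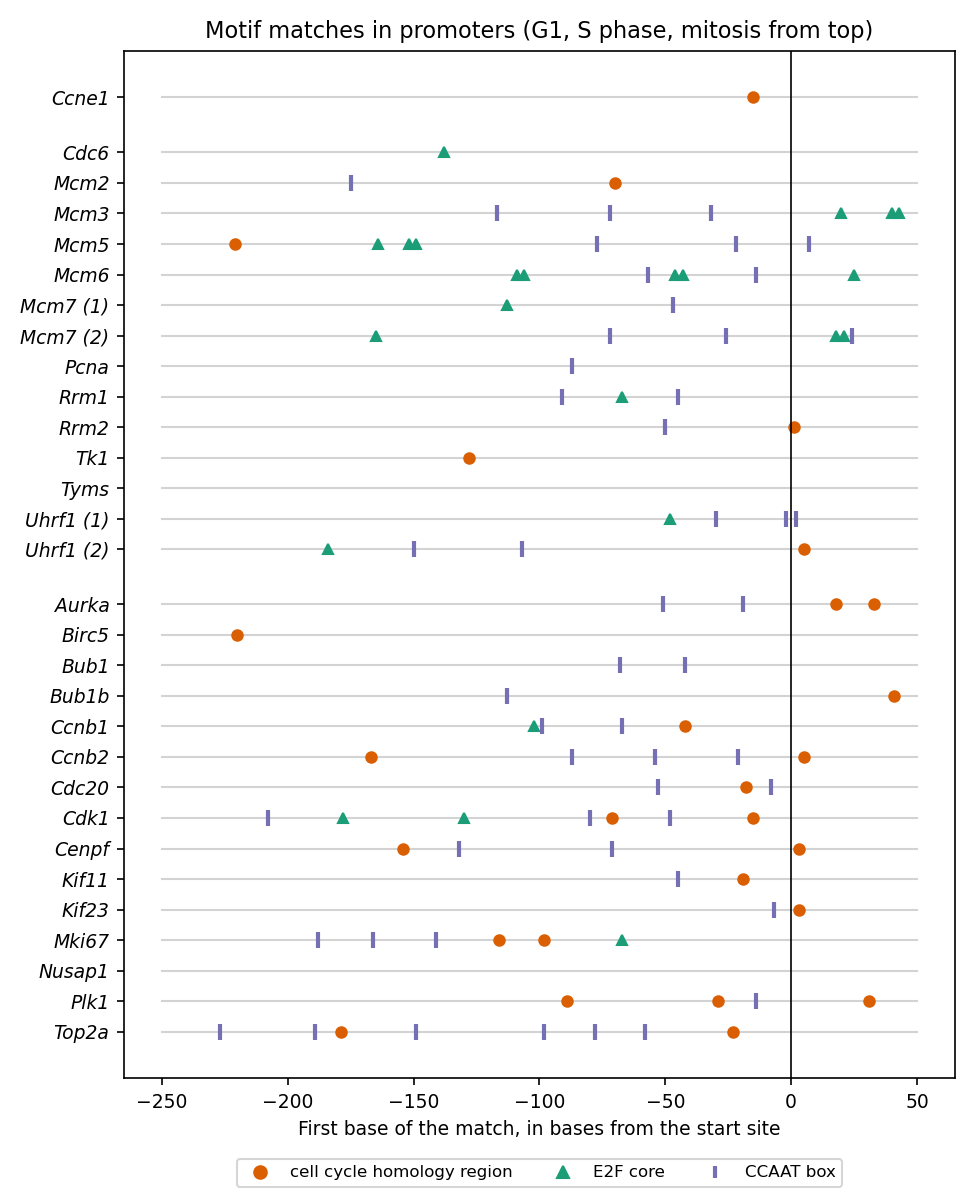
Matches to the cell cycle homology region (circles), the E2F core (triangles) and the CCAAT box (ticks) in the promoters of 28 member genes, by distance in bases from the transcription start site, with genes that have a second promoter shown as (1) and (2). Circles are found in most mitosis genes, 13 of 15, and triangles in 7 of 12 S phase genes.

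All 8 arrays lay on 1 slide, and each of its 4 columns held 1 NB and 1 NN array with consecutive sample numbers. The 75th percentile of the signal was 469 to 584 intensity units on NB arrays and 445 to 538 on NN arrays, and 75.7% to 79.6% of probes on NB arrays and 74.4% to 79.2% on NN arrays stood well above background. Albumin, the defining hepatocyte transcript, had a mean log2 signal of 5.44 in NB and 5.27 in NN above the 75th percentile of its array. Every signal given here is log2 relative to that percentile, every difference is NB minus NN on the log2 scale, and signals of different genes are not compared with each other, since each rests on its own probe. In whole liver, fewer cells in cycle and less RNA per cycling cell cannot be told apart.

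No cell cycle gene passed the test between the genotypes. At an adjusted p under 0.05, limma over all features called 0 of the 36 members, against 3 of 42982 features (0.00698%), and every member had an adjusted p of 1. At an unadjusted p under 0.05 there were also 0 members, against 0.738% of features that were higher in NB and 0.956% that were lower, or 1.69% in all. For no member did the genotypes separate. Over all features, NB lay wholly above NN in 0.426% and wholly below in 0.731%. Differences above 0 were found for 30 of the 36 members, against 45.9% of features, and the median difference was 0.12, against −0.01 over all features. The median depended on single arrays and was 0.02 to 0.22 with 1 array left out. Without NN 4 it was 0.02, with 22 of 36 members above 0, and without NB 8 it was 0.04, with 23 of 36. With normexp background correction the median was 0.06.

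**Figure D2:**
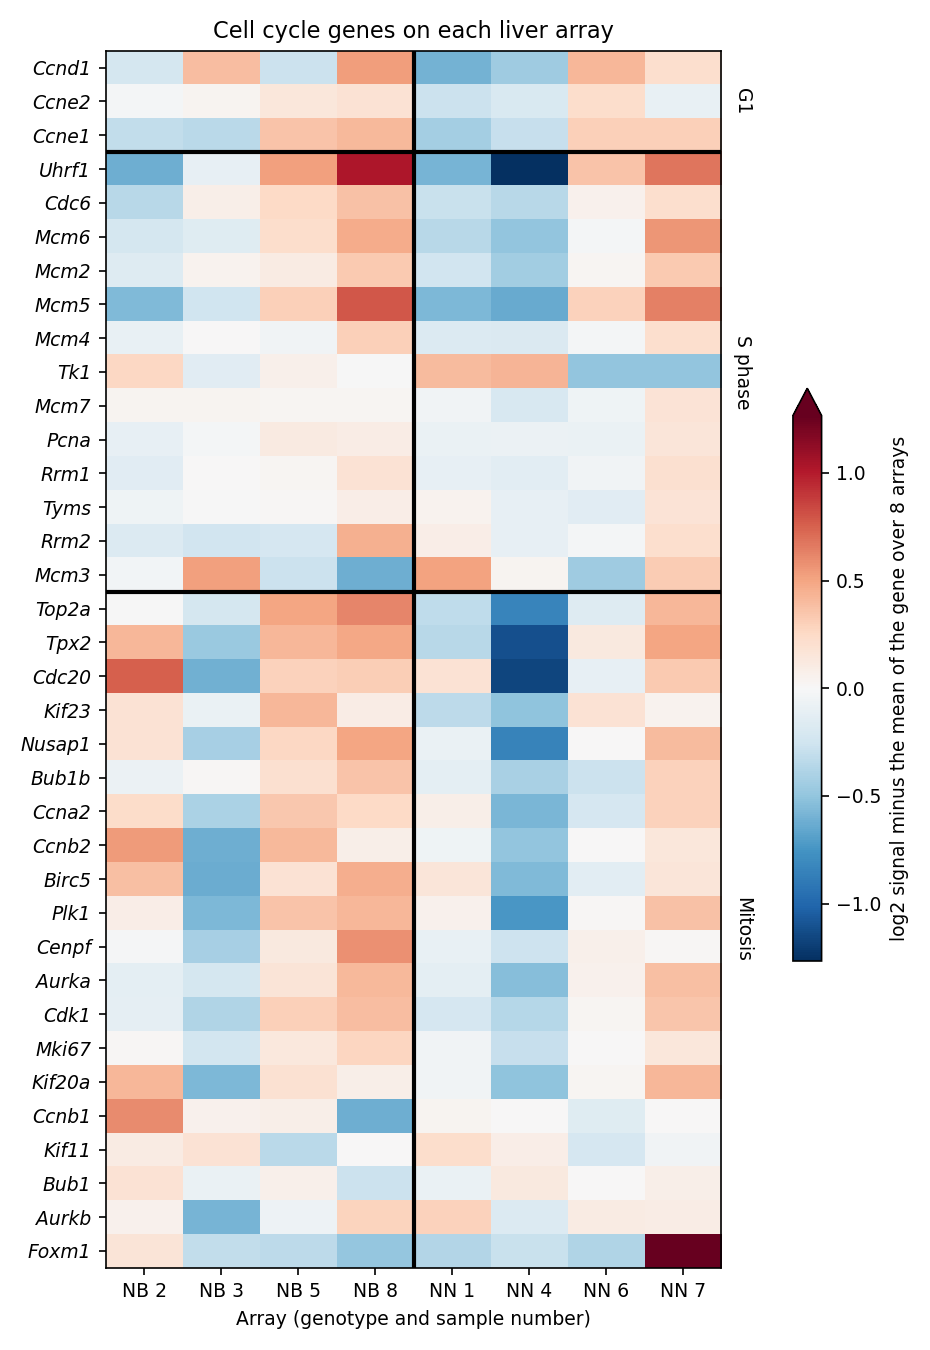
Log2 signal of each member on each array minus the mean of that gene over the 8 arrays, with the 4 NB arrays to the left of the 4 NN arrays and the genes grouped as G1 cyclins, S phase and mitosis. Red cells prevail on NN 7, NB 8 and NB 5, with 33, 31 and 29 of the 36 genes above their mean. Blue cells prevail on NN 4, NN 1 and NB 3, with 5, 11 and 11 genes above it, and NN 4 held the lowest value of 17 of the 36 genes.

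The 3 cyclin genes of G1 had differences above 0, with a median of 0.17, and none passed. Ccne2 encodes cyclin E2, a partner of CDK2 at the start of S phase. Its signal was −4.52 on NB 2, −4.46 on NB 3, −4.36 on NB 5 and −4.31 on NB 8, against −4.76 on NN 1, −4.69 on NN 4, −4.27 on NN 6 and −4.59 on NN 7. NN 6 was the highest of the 8 arrays and the other 3 NN arrays were below every NB array, so the genotypes overlapped through NN 6 alone. The difference was 0.17 (SE 0.12, 95% confidence interval −0.10 to 0.43). Without NN 6 it was 0.27. A second probe of Ccne2 had a difference of −0.07, and with normexp the difference of the first was 0.0092.

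Ccnd1, which encodes cyclin D1, the cyclin through which growth signals reach the cycle in hepatocytes, varied far more between arrays. It had −3.65 on NB 2, −3.04 on NB 3, −3.70 on NB 5 and −2.91 on NB 8, against −4.03 on NN 1, −3.88 on NN 4, −3.01 on NN 6 and −3.22 on NN 7. NB 8 and NN 6 were highest, NN 1 and NN 4 lay below every NB array, and the other NN arrays lay among the NB arrays. The difference was 0.21 (SE 0.28, 95% confidence interval −0.41 to 0.84). Without the arrays of slide column 2 the difference was −0.00029.

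Ccne1, the gene of cyclin E1, lay at 2 separate levels that did not follow the genotype. It measured −1.88 on NB 2, −1.90 on NB 3, −1.21 on NB 5 and −1.16 on NB 8, against −2.00 on NN 1, −1.86 on NN 4, −1.27 on NN 6 and −1.26 on NN 7. The arrays of slide columns 3 and 4 lay between −1.27 and −1.16 and those of columns 1 and 2 between −2.00 and −1.86, with 2 arrays of each genotype at either level. The difference was 0.06 (SE 0.24, 95% confidence interval −0.49 to 0.61).

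The genes of S phase came next. Of the 13, 11 had a difference above 0, with a median of 0.08. Without NB 8 this count was 7 and the median 0.01, and without NN 4 the count was 8. Among the licensing factors, Cdc6 loads the MCM helicase onto origins. Its signal was −3.27 on NB 2, −2.85 on NB 3, −2.67 on NB 5 and −2.55 on NB 8, against −3.21 on NN 1, −3.28 on NN 4, −2.88 on NN 6 and −2.71 on NN 7. NB 8 was highest, NB 5 and NN 7 followed, and NB 2 shared the bottom of the range with NN 4. The difference was 0.18 (SE 0.18, 95% confidence interval −0.23 to 0.60).

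Mcm2 to Mcm7 encode subunits of the replicative helicase. Mcm2 measured −0.02 on NB 2, 0.18 on NB 3, 0.25 on NB 5 and 0.47 on NB 8, against −0.10 on NN 1, −0.30 on NN 4, 0.17 on NN 6 and 0.48 on NN 7. NN 7 and NB 8, the 2 arrays of slide column 4, were highest and nearly equal, and NN 4 was lowest. The difference was 0.16 (SE 0.17, 95% confidence interval −0.24 to 0.55), and it was 0.04 without NN 4 and 0.30 without NN 7. Mcm7 had 0.97 on NB 2, 0.96 on NB 3, 0.96 on NB 5 and 0.96 on NB 8, against 0.88 on NN 1, 0.73 on NN 4, 0.87 on NN 6 and 1.10 on NN 7. Its 4 NB arrays lay within a standard deviation of 0.0054, whereas NN held both the highest array, NN 7, and the lowest, NN 4. The difference was 0.06 (SE 0.09, 95% confidence interval −0.14 to 0.26). The other subunits had differences of 0.16 (SE 0.24) for Mcm6, 0.14 (SE 0.37) for Mcm5 and 0.09 (SE 0.12) for Mcm4.

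Mcm5 and Mcm6, shown because they follow the slide column, were higher on all 4 arrays of columns 3 and 4 than on all 4 arrays of columns 1 and 2. For Mcm5 these were −0.80 and −0.32 in NB and −0.80 and −0.46 in NN, above −1.66 and −1.35 in NB and −1.67 and −1.74 in NN. Uhrf1, whose product brings the maintenance methyltransferase to newly copied DNA, had the same split and the largest spread among the S phase genes. Its signal was −3.73 on NB 2, −3.21 on NB 3, −2.59 on NB 5 and −2.08 on NB 8, against −3.70 on NN 1, −4.37 on NN 4, −2.75 on NN 6 and −2.43 on NN 7. NB 8 was highest and NN 4 lowest, and each genotype held arrays from both ends. The difference was 0.41 (SE 0.48, 95% confidence interval −0.67 to 1.50), and without NN 4 it was 0.06.

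The 1 probe of Mcm3 went against those of its partners in the helicase, and whether it reports Mcm3 alone was not tested. It measured 5.16 on NB 2, 5.71 on NB 3, 4.92 on NB 5 and 4.57 on NB 8, against 5.71 on NN 1, 5.23 on NN 4, 4.74 on NN 6 and 5.51 on NN 7. NB 3 and NN 1 were highest and NB 8, the top array for Mcm5 and Uhrf1, was lowest. The difference was −0.21 (SE 0.27, 95% confidence interval −0.82 to 0.41). On 3 of 8 arrays its deviation had the sign of the mean of the other S phase genes, against 8 of 8 for Mcm6 and Pcna.

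Pcna, the sliding clamp of the DNA polymerases, varied little. It had 1.26 on NB 2, 1.33 on NB 3, 1.47 on NB 5 and 1.45 on NB 8, against 1.28 on NN 1, 1.29 on NN 4, 1.28 on NN 6 and 1.52 on NN 7. NN 7 stood above the other 3 NN arrays, which were nearly equal, and the genotypes overlapped. The difference was 0.04 (SE 0.09, 95% confidence interval −0.16 to 0.24). The genes for deoxynucleotide supply were near 0 too. Rrm1 and Rrm2, the subunits of ribonucleotide reductase, had differences of 0.04 (SE 0.10) and −0.09 (SE 0.16), and thymidylate synthase, Tyms, had 0.02 (SE 0.09).

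Tk1, thymidine kinase, had a pattern of its own. Its signal was 1.46 on NB 2, 1.06 on NB 3, 1.26 on NB 5 and 1.20 on NB 8, against 1.60 on NN 1, 1.64 on NN 4, 0.70 on NN 6 and 0.70 on NN 7. NN 4 and NN 1 were highest and NN 6 and NN 7 lowest, so the NN arrays enclosed all NB arrays. The difference was 0.08 (SE 0.24, 95% confidence interval −0.46 to 0.63). Both other probes of Tk1 placed the same pairs of NN arrays at the top and the bottom, with differences of 0.05 and 0.02. As for Mcm3, only 3 of the 8 arrays deviated in the same direction as the rest of the S phase genes.

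The 20 mitosis genes had 16 differences above 0 and a median of 0.14, the median being 0.03 without NN 4 and 0.29 without NB 3. Kif23, a kinesin of the central spindle that is needed for cytokinesis, had the smallest unadjusted p of all members. It measured −3.23 on NB 2, −3.50 on NB 3, −3.00 on NB 5 and −3.32 on NB 8, against −3.74 on NN 1, −3.93 on NN 4, −3.23 on NN 6 and −3.37 on NN 7. NB 5 was highest and NN 1 and NN 4 were lowest, with NN 6 and NN 7 among the NB arrays. The difference was 0.30 (SE 0.17, 95% confidence interval −0.09 to 0.69).

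Top2a, the topoisomerase that untangles sister chromatids, had the largest difference above 0. Its signal was −0.78 on NB 2, −1.00 on NB 3, −0.29 on NB 5 and −0.16 on NB 8, against −1.10 on NN 1, −1.62 on NN 4, −0.94 on NN 6 and −0.36 on NN 7. NB 8 and NB 5 were highest with NN 7 just under them, and NN 4 stood well below the rest. The difference was 0.45 (SE 0.28, 95% confidence interval −0.18 to 1.08), which is 1.36-fold (95% confidence interval 0.88-fold to 2.12-fold), and it was 0.24 without NN 4 and 0.66 without NN 7.

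Bub1b encodes BUBR1, a kinase-like protein of the spindle checkpoint. It had −4.57 on NB 2, −4.49 on NB 3, −4.30 on NB 5 and −4.14 on NB 8, against −4.62 on NN 1, −4.91 on NN 4, −4.77 on NN 6 and −4.20 on NN 7. All NN arrays except NN 7 were below every NB array. The difference was 0.25 (SE 0.16, 95% confidence interval −0.12 to 0.62), and without NN 7 it was 0.39. A second probe of Bub1b was not well above background on any array. Its partner Bub1 had a difference of −0.06 (SE 0.11) from its brightest probe and 0.19 from a second one, while the other probe was not well above background on any array.

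Tpx2 activates Aurora A on spindle microtubules. Its signal was −2.92 on NB 2, −3.82 on NB 3, −2.93 on NB 5 and −2.86 on NB 8, against −3.70 on NN 1, −4.46 on NN 4, −3.23 on NN 6 and −2.85 on NN 7. NB 3 and NN 4 were the lowest, far under most arrays of their genotypes. The difference was 0.43 (SE 0.35, 95% confidence interval −0.37 to 1.22), and it was 0.13 without NN 4 and 0.66 without NN 7. Cdc20, the activator of the anaphase-promoting complex, measured −0.70 on NB 2, −2.07 on NB 3, −1.17 on NB 5 and −1.14 on NB 8, against −1.28 on NN 1, −2.62 on NN 4, −1.56 on NN 6 and −1.12 on NN 7. NB 2 was highest, and NB 3 and NN 4 were again the lowest. The difference was 0.38 (SE 0.37, 95% confidence interval −0.47 to 1.22), and it was 0.05 without NN 4 and 0.64 without NB 3.

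Mki67, the proliferation marker whose product coats mitotic chromosomes, had 0.01 on NB 2, −0.23 on NB 3, 0.13 on NB 5 and 0.27 on NB 8, against −0.05 on NN 1, −0.29 on NN 4, 0.01 on NN 6 and 0.14 on NN 7. NB 8 was highest, and NN 4 and NB 3 were lowest. The difference was 0.09 (SE 0.13, 95% confidence interval −0.20 to 0.39). Cdk1, the kinase that drives mitotic entry, measured −0.99 on NB 2, −1.25 on NB 3, −0.58 on NB 5 and −0.49 on NB 8, against −1.09 on NN 1, −1.23 on NN 4, −0.85 on NN 6 and −0.52 on NN 7. NB 8, NN 7 and NB 5 were high, and NB 3 and NN 4 were low by about the same amount. The difference was 0.10 (SE 0.21, 95% confidence interval −0.37 to 0.57).

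The partners of Cdk1 were not uniform. Ccnb1, which encodes cyclin B1, had −2.34 on NB 2, −2.88 on NB 3, −2.87 on NB 5 and −3.56 on NB 8, against −2.90 on NN 1, −2.93 on NN 4, −3.09 on NN 6 and −2.94 on NN 7. NB held both the highest array, NB 2, and the lowest, NB 8, while the NN arrays lay close together, with standard deviations of 0.50 in NB and 0.09 in NN. The difference was 0.05 (SE 0.22, 95% confidence interval −0.45 to 0.55). Ccnb2 and Ccna2, the genes of cyclins B2 and A2, had differences of 0.21 (SE 0.25) and 0.21 (SE 0.22). That of Ccnb2 was 0.06 without NB 2 and 0.44 without NB 3.

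Foxm1, the transcription factor of mitotic genes, had the lowest difference, and it rested on 1 array. It measured −2.89 on NB 2, −3.36 on NB 3, −3.39 on NB 5 and −3.54 on NB 8, against −3.42 on NN 1, −3.34 on NN 4, −3.44 on NN 6 and −1.04 on NN 7. NN 7 stood far above the other 7 arrays. The difference was −0.49 (SE 0.51, 95% confidence interval −1.64 to 0.67), and without NN 7 it was 0.10.

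Of the remaining mitosis genes, Nusap1, which bundles spindle microtubules, had a difference of 0.26 (SE 0.28), which was 0.02 without NN 4 and 0.44 without NB 3, and Plk1, a kinase of mitotic entry and exit, had 0.15 (SE 0.28). In the chromosomal passenger complex, survivin, Birc5, had 0.19 (SE 0.26), or 0.04 without NN 4 and 0.44 without NB 3, and the kinase Aurkb −0.16 (SE 0.18). Aurora A, Aurka, had 0.11 (SE 0.21) and the kinetochore gene Cenpf 0.14 (SE 0.19). The kinesin genes Kif20a and Kif11 had 0.06 (SE 0.24) and −0.03 (SE 0.14). Kif20a lies on chromosome 18, the chromosome that holds the congenic segment.

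**Figure D3:**
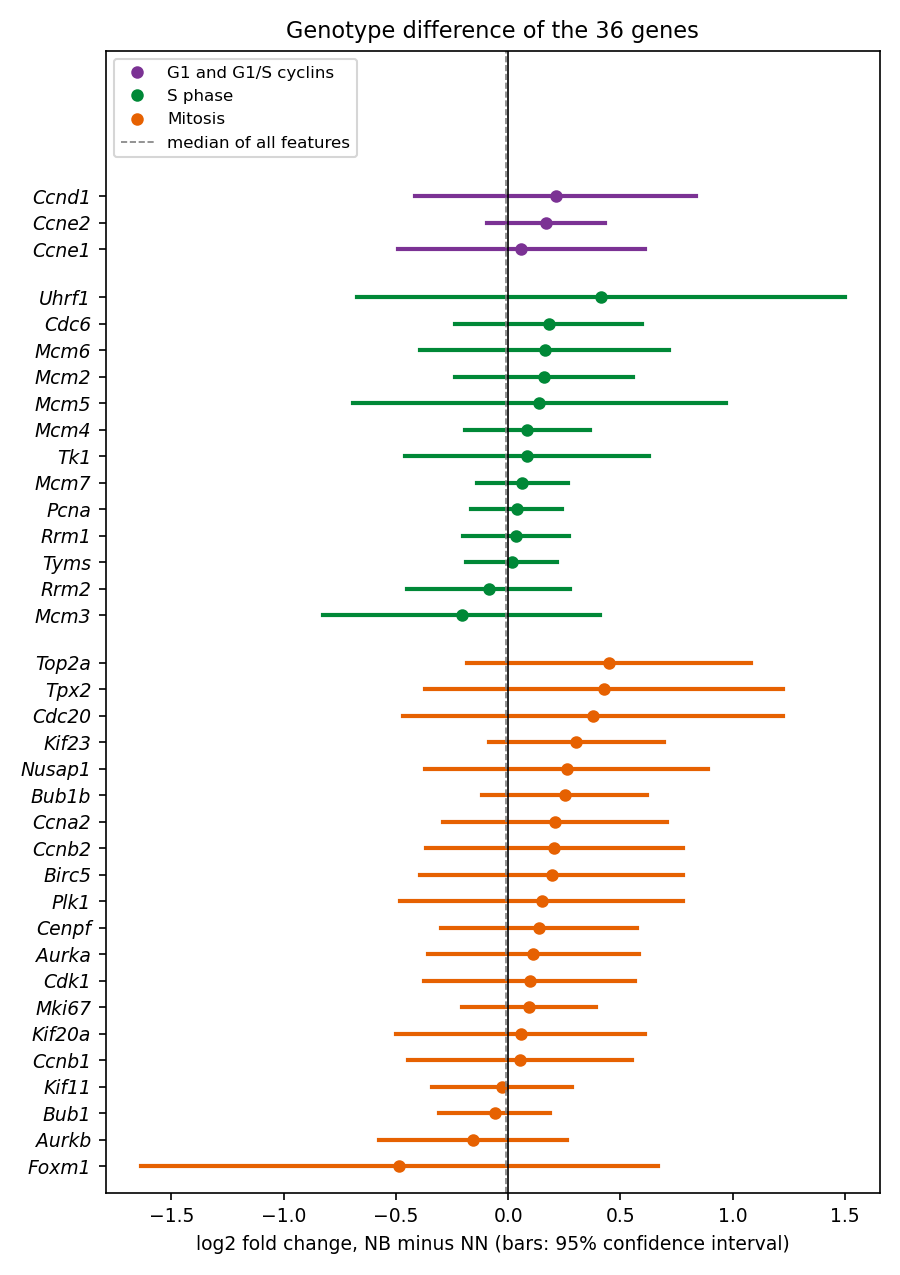
Difference between the genotypes, NB minus NN on the log2 scale, for the 36 genes, with 95% confidence intervals from limma and the median of all features as a dashed line. Every interval holds 0, and 30 of the 36 points lie to the right of it.

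The members varied more between arrays of 1 genotype than other features did. Their median residual standard deviation was 0.35, against 0.17 over all features, and it ranged from 0.11 for Mcm7 to 0.86 for Foxm1. The gap was present at each level of signal. It was 0.38 against 0.26 among the dimmest features, 0.37 against 0.15 at middle levels and 0.20 against 0.12 among the brightest, in 3 bins of equal size.

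Much of this spread followed the column of the slide. The mitosis genes were low on both arrays of column 2, NB 3 and NN 4. Their mean deviation from the gene means was 0.20 on NB 2, −0.33 on NB 3, 0.18 on NB 5 and 0.21 on NB 8, against −0.06 on NN 1, −0.47 on NN 4, −0.05 on NN 6 and 0.32 on NN 7. In 13 of the 20 genes (65%) the 2 lowest arrays were these 2, which held for 2.67% of the 42512 features with a value on every array. The 13 were Ccna2, Ccnb2, Cdk1, Cdc20, Plk1, Aurka, Aurkb, Birc5, Cenpf, Kif20a, Mki67, Nusap1 and Tpx2.

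S phase genes differed from this in part. The mean of the 2 arrays of a column was −0.14 in column 1, −0.14 in column 2, 0.02 in column 3 and 0.26 in column 4. Column 2 was thus low for these genes too, but no lower than column 1 to 2 digits. None of the 13 had its 2 lowest values in column 2, but only 2.67% of features had, so this count says little by itself. NN 4 alone held the lowest value of 7 of the 13. The mean deviation of the S phase genes was −0.17 on NB 2, −0.02 on NB 3, 0.09 on NB 5 and 0.27 on NB 8, against −0.11 on NN 1, −0.27 on NN 4, −0.05 on NN 6 and 0.26 on NN 7. The arrays of column 4 were highest in both genotypes, and NB 3 was near the middle where the mitosis genes had their lowest NB array. In 3 S phase genes (Mcm5, Mcm6 and Uhrf1) and 3 mitosis genes (Aurka, Cdk1 and Cenpf) the 4 highest arrays were those of columns 3 and 4, which held for 5.09% of features.

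The arrays of column 2 were not extreme in overall signal. Their 75th percentiles were 514 intensity units on NB 3 and 516 on NN 4, and 77.2% and 78.1% of their probes stood well above background, within the range of the other arrays. Column and order of sample numbers run together on this slide, so position and any handling by number cannot be told apart.

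**Figure D4:**
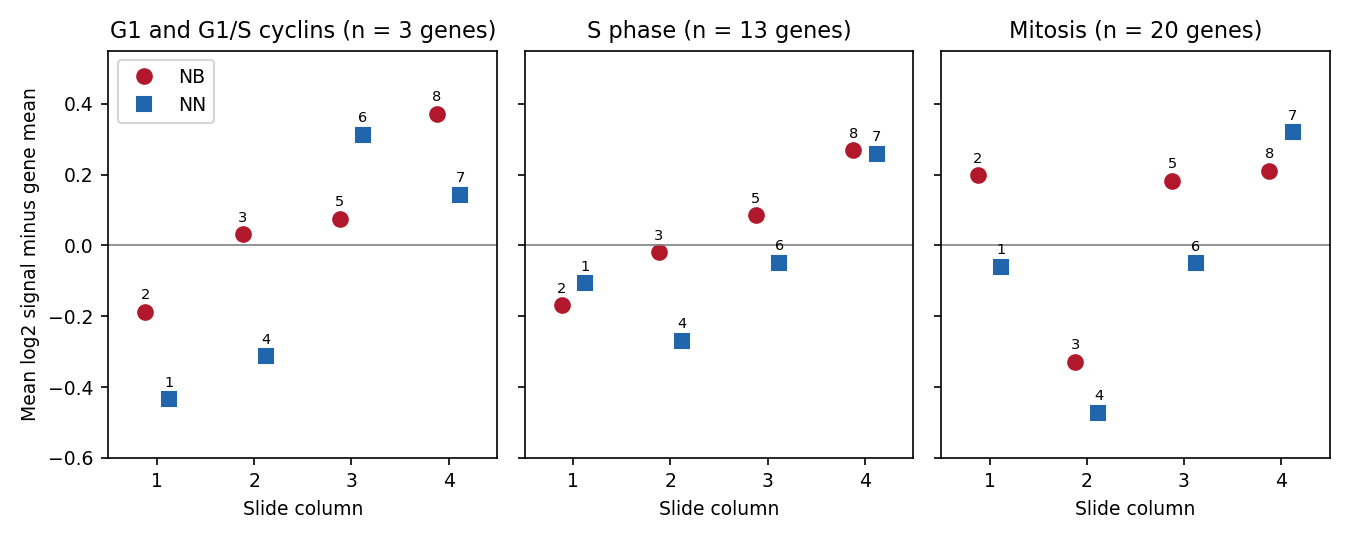
Mean deviation from the gene means, on the log2 scale, of the G1 cyclins, the S phase genes and the mitosis genes on each array by slide column, with NB arrays as circles, NN arrays as squares and sample numbers beside them. Both arrays of column 2 are the lowest for mitosis, at −0.33 in NB and −0.47 in NN, and both arrays of column 4 are high for S phase, at 0.27 in NB and 0.26 in NN.

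Within the columns, where 1 NB array faces 1 NN array, the mean difference of the mitosis genes was 0.26 in column 1, 0.14 in column 2, 0.23 in column 3 and −0.11 in column 4. That of the S phase genes was −0.06, 0.25, 0.13 and 0.0094 in the same columns. The mean of the mitosis genes in column 4 was below 0 because of Foxm1, at −2.50 there. Most other mitosis genes had a difference above 0 in that column, but they ranged from −0.62 for Ccnb1 to 0.57 for Cenpf. The spindle and cytokinesis list described further on, which lacks Foxm1, had mean differences of 0.27, 0.20, 0.27 and −0.04 in columns 1 to 4. The higher mean in NB seen in columns 1 to 3 was thus not seen in column 4. NB was the higher array in all 4 columns for 8 of the 36 members, against 3.88% of features. These were Top2a, Kif23, Bub1b, Nusap1, Plk1, Aurka and Mki67 of mitosis and Mcm5 of S phase. Their smallest margin in a column was 0.003 for Aurka, 0.005 for Mcm5 and 0.03 for Plk1, against 0.20 for Top2a. Aurka, Mcm5 and Plk1 also changed sign in the main fit when single arrays were left out. For no member was NB the lower array in all 4, as it was for 2250 of the 42512 features. Of the Kupffer cell markers, 5 of 9 (55.6%) also had NB higher in all 4 columns, and the mean difference of those markers was 0.11, 0.49, 0.11 and 0.06 in the same columns. Their part in the values of the members was not tested.

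When the column was added to the fit as a block, the residual standard deviation of the members had a median of 0.15, with 0.35 without the block, and was smaller for 31 of 36. Over all features it was 0.14 with the block and 0.17 without it. Again 0 members were called at an adjusted p under 0.05, against 0.00698% of features, and every adjusted p was 1. At an unadjusted p under 0.05 there were 5 members, all of mitosis and all higher in NB, against 2.85% of features.

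These 5 were led by Top2a, with 0.45 (SE 0.11). Its columns gave 0.32, 0.62, 0.66 and 0.20, so that NB was higher in each. Nusap1 had 0.26 (SE 0.08) and differences of 0.26, 0.43, 0.26 and 0.09. The microtubule motor Kif23 had 0.30 (SE 0.10) and 0.51, 0.43, 0.23 and 0.05. For Cdc20 (0.38, SE 0.12) and Tpx2 (0.43, SE 0.15), NB was higher in columns 1 to 3, and column 4 was at −0.02 and −0.01. In column 4 the difference farthest from 0 among the members was that of Foxm1, at −2.50.

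**Figure D5:**
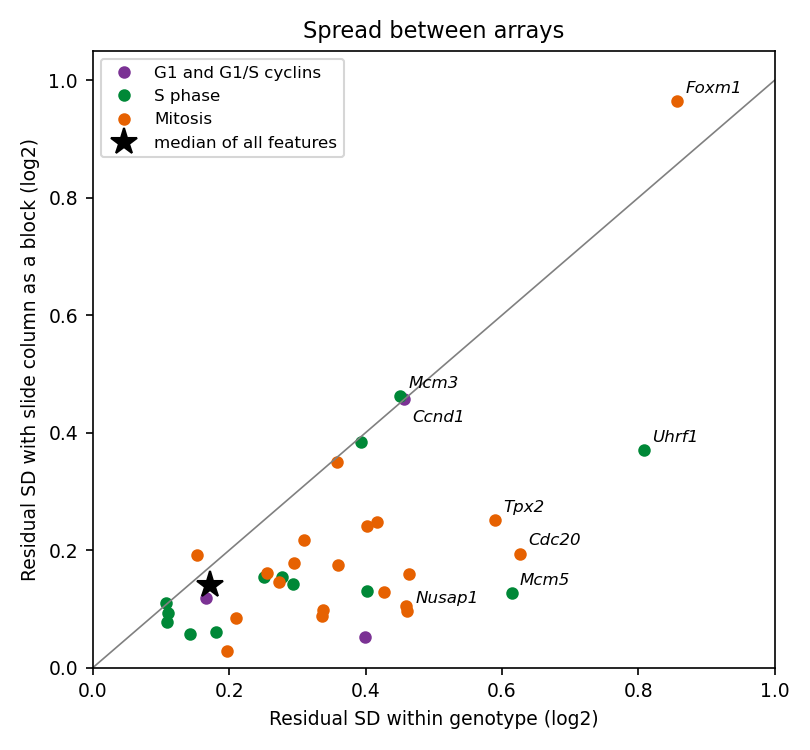
Residual standard deviation of each member within genotype (horizontal axis) and after the slide column was added as a block (vertical axis), both on the log2 scale, with the median of all features as a star. Points under the diagonal, 31 of 36, became less variable, while Foxm1, Mcm3, Ccnd1, Mcm7 and Bub1 lie on or above it.

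The wider pathway was read from 13 lists of 145 other genes, of which 141 were measured. None was called at an adjusted p under 0.05, against 0.00698% of features, and 1 of the 141 had an unadjusted p under 0.05, a smaller share than the 1.69% of features. Differences above 0 were found for 99 of the 141, with a median of 0.04. The gene with the unadjusted p was Espl1, separase, the protease that cuts cohesin at anaphase. It measured −3.67 on NB 2, −3.78 on NB 3, −3.12 on NB 5 and −3.33 on NB 8, against −4.30 on NN 1, −4.36 on NN 4, −3.75 on NN 6 and −3.66 on NN 7. NB 5 and NB 8 were highest and NN 1 and NN 4 lowest, and the other 4 arrays lay close together. The difference was 0.54 (SE 0.21, 95% confidence interval 0.07 to 1.01).

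Lists of mitosis came first. Of 16 spindle and cytokinesis genes 15 were above 0, with a median of 0.15, led by the microtubule protein Ckap2 at 0.37 (SE 0.23), while the kinesin Kif18b was at −0.03 (SE 0.15). Their mean deviation was −0.22 on NB 3 and −0.41 on NN 4, and in 5 of the 16 these arrays were the 2 lowest. The same held for 4 of 14 kinetochore and checkpoint genes and 3 of 16 genes of mitotic entry and exit. Among replication genes it held for 3 of 16 of origin licensing and firing and 1 of 21 of the fork. Of 16 genes of mitotic entry and exit 12 were above 0 (median 0.07), with Cks2, a small subunit of cyclin-dependent kinases, at −0.13 (SE 0.08). The kinase Nek2 in that list had all NB arrays above all NN arrays, as had 0.426% of features, at 0.35 ± 0.03 in NB and 0.20 ± 0.06 in NN (SD, n = 4 each), with a difference of 0.15 (SE 0.07, 95% confidence interval −0.01 to 0.30).

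In the kinetochore and checkpoint list 9 of 14 were above 0 (median 0.03), with the kinetochore proteins Nuf2 at 0.18 (SE 0.09) and Knl1 at −0.13 (SE 0.14). Of 8 condensin genes 7 were above 0 (median 0.05), with Ncaph at 0.21 (SE 0.15) and Smc4 at −0.04 (SE 0.08). Among replication genes, of 16 for origin licensing and firing 11 were above 0 (median 0.02), with the licensing inhibitor Gmnn at 0.10 (SE 0.10) and the origin protein Orc2 at −0.15 (SE 0.11). Of 21 fork genes 15 were above 0 (median 0.04), with Pola1 of polymerase alpha at 0.21 (SE 0.14) and the primase subunit Prim2 at −0.07 (SE 0.09). Of 5 genes of nucleotide supply 2 were above 0 (median −0.03), with the dUTPase Dut at 0.05 (SE 0.07) and deoxycytidine kinase, Dck, at −0.24 (SE 0.19). The value of Dck rests on 5 arrays, NB 2 and NB 8 against NN 4, NN 6 and NN 7.

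Regulators upstream of the cycle followed. Of 7 other G1 cyclins and kinases 4 were above 0 (median 0.06). Cdk2, the partner of cyclins E and A, was at 0.78 ± 0.02 in NB and 0.67 ± 0.03 in NN (SD, n = 4 each), with no overlap, as for 0.426% of features, and a difference of 0.10 (SE 0.06, 95% confidence interval −0.04 to 0.25), while the CDK-activating kinase Cdk7 was at −0.10 (SE 0.12). Of 5 measured inhibitors of cyclin-dependent kinases 3 were above 0 (median 0.00028), with Cdkn2c at 0.21 (SE 0.17) and Cdkn1c at −0.09 (SE 0.08). Of 13 genes of the RB and E2F families 10 were above 0 (median 0.02). There E2f8, a repressor that in mouse liver promotes polyploid hepatocytes, was at 0.45 (SE 0.22), and E2f2 was at −0.24 (SE 0.18). Of 6 genes of the DREAM complex and B-MYB, which sit on the homology region, 1 was above 0 (median −0.01), with Lin54, its DNA-binding subunit, at 0.02 (SE 0.07) and Mybl2 at −0.10 (SE 0.10). Of 8 targets of p53 4 were above 0 (median 0.0082), with Phlda3 at 0.22 (SE 0.12) and Sesn2, which had no value on NB 3, at −0.37 (SE 0.22). Of 7 growth signals of hepatocytes 6 were above 0 (median 0.12), with the EGF receptor ligand Hbegf at 0.22 (SE 0.12) and the receptor Egfr at −0.20 (SE 0.14).

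Cell type markers were read beside these values because cycling cells in liver can be of several types. Of 9 Kupffer cell markers 8 were above 0 (median 0.17), and their summed linear signal, in multiples of the 75th percentile of the array, was 54.7 to 74.8 in NB and 52.1 to 68.9 in NN. Of 7 markers of monocytes and recruited macrophages 6 were above 0 (median 0.23), with sums of 63.7 to 108 in NB and 74.2 to 107 in NN. Most of each such sum came from Trem2, the marker below 0 (−0.15), at 6.09 in NB and 6.25 in NN. Of 8 erythroid precursor markers 3 were above 0 (median −0.01), with sums of 60.9 to 81.5 in NB and 68.3 to 79.0 in NN. Here most of the sum came from Alas2, at 5.55 in NB and 5.66 in NN, so sums of this kind follow the brightest probes. The 6 measured hepatocyte markers had 2 above 0 (median −0.02), with sums of 486 to 521 in NB and 487 to 529 in NN. Among other immune lists, 6 of 8 neutrophil, 5 of 8 T cell, 2 of 5 B cell and 4 of 6 natural killer cell markers were above 0. So were 6 of 8 stellate cell, 5 of 8 endothelial cell and 1 of 5 cholangiocyte markers. No marker passed the test over all features, and each marker counted here passed the filter on dim probes. Their part in the values of the cell cycle genes was not tested. On the arrays of column 2, where mitosis genes were low in both genotypes, the Kupffer cell markers had a mean deviation of 0.21 on NB 3 and −0.29 on NN 4.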

How the data were processed

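Liver RNA of 8 samples was labelled with Cy3 and hybridised to 1-colour Agilent arrays. The deposited intensity files were made with Agilent Feature Extraction, version 11.5.1.1 per the file headers and 9.1 in the submitters' processing notes. The processed signal used here is an intensity after background subtraction and detrending, per the file headers, with no scaling between arrays. The authors' value table, used only as an alternative, holds linear intensity values with no stated scale or method.

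Control spots and spots marked as outliers were left out and spots of a probe were averaged. The log2 of the deposited processed intensity was taken minus its 75th percentile on each array over all probes. Of 60273 probes, 31064 were named through RefSeq as 26698 genes. A probe was kept if at least 4 of 8 arrays measured it well above background (46848 probes), the brightest probe stood for a gene, and 42982 features with enough values were tested.

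The test between genotypes was limma's (version 3.58.1, R 4.3.3, lmFit then eBayes), two-sided, adjusted after Benjamini and Hochberg over all features, with a threshold of 0.05. It was also run on simulated arrays that took their means and spread from these data. The members, lists and tests were chosen with earlier results of these data known. Array values are given, by rule, for all G1 cyclins, for the 5 S phase and the 5 mitosis genes with the smallest p, and for Mki67, Top2a, Cdk1, Ccnb1, Pcna and Mcm2. In each pathway list the rule names the smallest p in each direction. Foxm1, Tk1, Mcm5, Mcm6, Nusap1, Bub1, Nek2, Alb and the genes named for a slide column or a single array were chosen after their values were seen.

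Alternatives covered background correction, scaling, the authors' table, filters, probe summary, variance model, array weights, slide row and column, and each array left out. Promoter letters were searched on both strands of the RefSeq promoters of GRCm38.p6. No promoter was in the table for Aurkb, Ccna2, Ccnd1, Ccne2, Foxm1, Kif20a, Mcm4 and Tpx2.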

Additional observations from a re-analysis of the deposited data

Results flagged for a closer look

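The values of each member and class were screened within each genotype, and in 6 of 84 such sets (7.14%) 1 array stood far from the other 3, where chance gives about 5%, and the sets are not independent. On array NB 3 the mean deviation of the mitosis genes was −0.329, against 0.183 to 0.211 on the other NB arrays. The same array was low for Ccna2, at −3.69 against −3.06 to −2.95, and for Tpx2, at −3.82 against −2.93 to −2.86. Array NB 8 was high for Rrm2, at −1.52 against −2.20 to −2.13. Among NN arrays, NN 7 was high for Foxm1, at −1.04 against −3.44 to −3.34, and for Pcna, at 1.52 against 1.28 to 1.29. All values are log2, relative to the 75th percentile of the array or, for the mean of the mitosis genes, to the gene means.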

How the results depend on the processing

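No member was called under any of the 12 planned settings that kept all arrays, the 8 that left out 1 array, or the fit without slide column 2, a setting chosen after seeing the data. With all arrays kept, 30 or 31 of the 36 members had a difference above 0, with medians from 0.06 (normexp) to 0.13. Single differences changed sign with normexp for Bub1 (0.014) and Kif20a (−0.0077), with a gene's probes averaged for Bub1 (0.063), and without slide column 2 for Ccnd1 (−0.00029) and Tyms (−0.011). The cause was not tested. With 1 array left out, 16 members changed sign at least once, with these ranges: Ccne1 −0.075 to 0.18, Mcm4 −0.0011 to 0.17, Mcm5 −0.10 to 0.37, Tyms −0.029 to 0.076, Rrm1 −0.019 to 0.11, Tk1 −0.070 to 0.24, Ccnb1 −0.14 to 0.27, Cdk1 −0.017 to 0.24, Bub1 −0.13 to 0.022, Plk1 −0.071 to 0.36, Aurka −0.048 to 0.26, Aurkb −0.28 to 0.013, Foxm1 −0.69 to 0.10, Cenpf −0.034 to 0.30, Kif11 −0.10 to 0.084 and Kif20a −0.11 to 0.26. The other 20 kept their sign, with ranges Ccnd1 0.046 to 0.39, Ccne2 0.10 to 0.27, Mcm2 0.039 to 0.30, Mcm3 −0.41 to −0.033, Mcm6 0.024 to 0.37, Mcm7 0.0081 to 0.13, Cdc6 0.086 to 0.33, Pcna 0.008 to 0.096, Rrm2 −0.25 to −0.02, Uhrf1 0.059 to 0.71, Mki67 0.013 to 0.19, Top2a 0.24 to 0.66, Ccna2 0.05 to 0.38, Ccnb2 0.058 to 0.44, Cdc20 0.052 to 0.64, Bub1b 0.16 to 0.39, Birc5 0.039 to 0.44, Kif23 0.18 to 0.42, Nusap1 0.022 to 0.44 and Tpx2 0.13 to 0.66. The count above 0 was 22 (without NN 4) to 31 for all members, 12 to 17 for mitosis and 7 (without NB 8) to 11 for S phase, and without slide column 2 it was 28, 16 and 10. Members at an unadjusted p under 0.05 numbered 0 with all arrays, 5 with the slide column as a block, 2 without NB 3 (Ccnb2 and Birc5), 2 without NN 6 (Ccne2 and Kif23), 2 without NN 7 (Top2a and Bub1b) and 1 without NB 8 (Rrm2, lower in NB). Features at an unadjusted p under 0.05 numbered 728, and 1193 with array weights, 1226 with the column block, 1459 without NB 2 and 1193 without NB 8. Features called higher in NB numbered 3, and 5 with probes averaged, 1 without slide column 2 and 2 to 3 with 1 array left out. No paired analysis was possible because the genotypes share no sample number in the labels, so arrays were matched only by slide column, as the block above.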
